A study of Mus musculus with 6 samples.

Results

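Gangliosides are sialic acid-bearing glycolipids of the outer plasma membrane, and the 10 genes described here encode the glycosyltransferases that build their backbone in the mouse. Ugcg makes glucosylceramide from ceramide, B4galt5 and B4galt6 extend it to lactosylceramide, and St3gal5 adds a sialic acid to give GM3, the ganglioside for which B16 melanoma cells are known. St8sia1 converts GM3 to GD3, B4galnt1 makes GM2 and GD2, B3galt4 makes GM1 and GD1b, and St8sia5 and St6galnac5 add further sialic acids to longer chains, while A4galt takes lactosylceramide into the globo series as Gb3. The genes were chosen by name, and all 10 were found among the 21801 genes of the deposited table, with 17 of its 59192 transcripts.

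Bulk RNA was sequenced from B16F10-OVA, a line of mouse melanoma cells that expresses the model antigen ovalbumin in both groups compared. The treated group holds 3 libraries of cells cultured for 5 days in 50 µM Ac4ManNAz. The untreated group holds 3 libraries of the same line, for which the labels name no vehicle. For both groups a passage on day 3 is listed. Ac4ManNAz is an azide-bearing precursor of sialic acid, used to tag sialylated molecules by click chemistry, and GM3 synthesis consumes the same CMP-sialic acid supply as the labelled glycoproteins. The comparison asks whether the labelling alters transcript levels. Whether the replicates were separate cultures is not stated, so p-values reflect only the spread among these 6 libraries, which could be technical.

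Levels are given in FPKM, fragments scaled to transcript length and library size, so that different genes can be compared per length. Each library listed between 13912 and 18974 genes above 0. The melanoma markers Mitf, Tyr, Pmel, Dct, Mlana, Tyrp1 and Sox10 summed to 7636 to 9313 FPKM in untreated and 7431 to 9093 FPKM in treated libraries. Pmel and Tyrp1, which averaged 4347 and 2418 FPKM over all libraries, made up most of this sum. It does not show whether each other marker was steady between libraries. Of 16 markers of fibroblasts, immune, endothelial, epithelial and neuronal cells, 14 stayed below 1 FPKM in every library. The exceptions were Lyz2, at 1.70 to 3.96 FPKM and Pecam1, at 0.166 to 1.40 FPKM.

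The genes split into a transcribed route to GM3 and a set near 0. Ugcg, both lactosylceramide synthase genes and St3gal5 each averaged above 7 FPKM, and the other 6 genes each averaged below 0.3 FPKM. A value near 0 in this table is a listed value and no proof of absence, since the glycolysis gene Gapdh, which cells use throughout, was listed at 0.135 to 10.4 FPKM. In bulk RNA, fewer cells of a type and less RNA per cell cannot be told apart. Ugcg averaged 28.7 FPKM over the 6 libraries, above 90.7% of all genes in the table. B4galt5 followed at 18.5 FPKM, above 86.1% of genes, then St3gal5 at 9.48 FPKM, above 77.2%, and B4galt6 at 7.36 FPKM, above 73.5%. B3galt4 averaged 0.283 FPKM, above 49.3% of genes. St8sia5, B4galnt1, A4galt, St6galnac5 and St8sia1 averaged 0.0129 to 0.0209 FPKM, above 24.1% to 32.3% of genes.

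**Figure D1:**
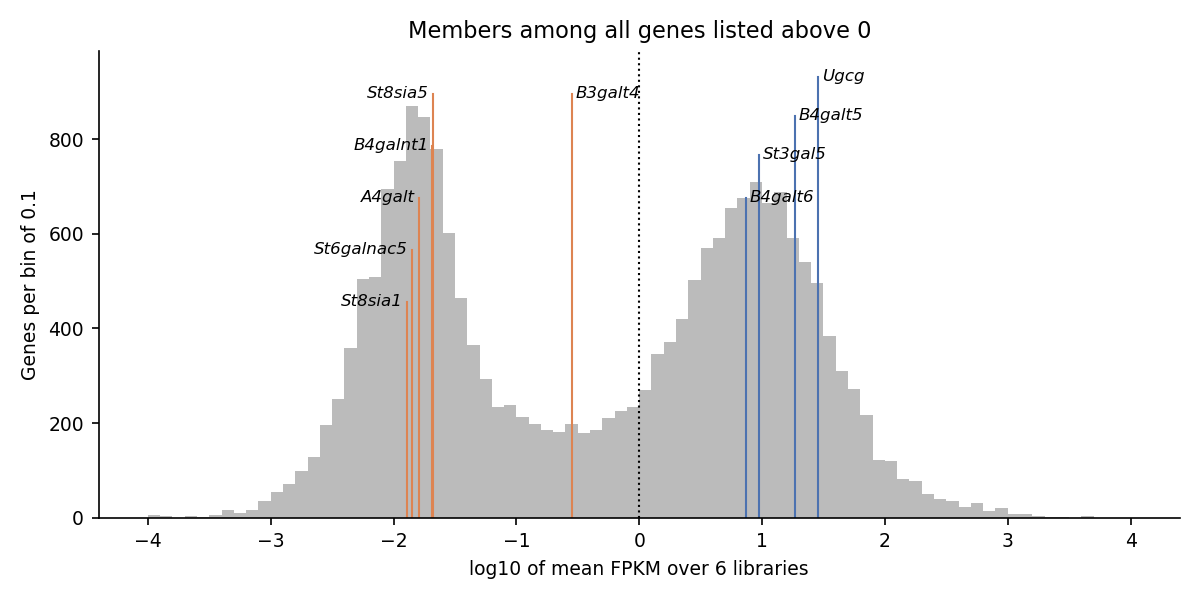
Histogram of the log10 of mean FPKM over 6 libraries for all genes listed above 0, with the position of each of the 10 genes. The vertical dotted line marks 1 FPKM. The 4 genes from glucosylceramide to GM3 (blue) lie in the upper mode, 5 of the others (orange) in the lower mode, and B3galt4 between the modes.

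The order of the 4 transcribed genes was nearly fixed. Ugcg exceeded B4galt5 in 6 of 6 libraries, with ranges that did not overlap, and B4galt5 exceeded St3gal5 in 6 of 6, also with separate ranges. St3gal5 exceeded B4galt6 in 5 of 6 libraries, and their ranges overlapped, so these neighbours were not separated by their spread. B4galt6 stood 26.0-fold above B3galt4 in mean FPKM. Among St8sia5, B4galnt1, A4galt, St6galnac5 and St8sia1, neighbours in the order kept that order in at most 3 of 6 libraries.

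Sequence upstream of the start sites is shown for members on either side of this split, 200 bases ending 51 bases before the RefSeq start, 5′ to 3′ on the gene's strand (GRCm38.p6), with every CG dinucleotide in capitals.

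St3gal5 (chr6:72097358-72097557, plus strand): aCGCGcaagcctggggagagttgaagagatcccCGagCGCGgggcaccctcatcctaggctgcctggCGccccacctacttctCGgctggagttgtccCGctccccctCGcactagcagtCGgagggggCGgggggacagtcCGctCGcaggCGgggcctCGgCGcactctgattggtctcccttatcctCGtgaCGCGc

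B4galt5 (chr2:167349229-167349428, minus strand): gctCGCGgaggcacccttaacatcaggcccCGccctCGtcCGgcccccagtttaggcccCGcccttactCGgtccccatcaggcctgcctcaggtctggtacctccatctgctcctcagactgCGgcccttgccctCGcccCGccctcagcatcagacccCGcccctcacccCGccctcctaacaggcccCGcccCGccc

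St8sia1 (chr6:142964503-142964702, minus strand): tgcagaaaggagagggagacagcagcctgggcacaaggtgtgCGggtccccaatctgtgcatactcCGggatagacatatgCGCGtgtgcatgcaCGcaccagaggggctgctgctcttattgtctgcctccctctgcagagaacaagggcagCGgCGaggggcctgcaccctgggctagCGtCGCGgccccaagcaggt

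A4galt (chr15:83251780-83251979, minus strand): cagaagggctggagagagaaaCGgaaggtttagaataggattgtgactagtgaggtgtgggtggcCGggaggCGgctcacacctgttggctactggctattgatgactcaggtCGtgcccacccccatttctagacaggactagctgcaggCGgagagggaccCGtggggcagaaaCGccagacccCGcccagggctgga

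RefSeq windows were matched for 6 of the 10 genes. Over the full 250 bases before the RefSeq start, the transcribed genes Ugcg, St3gal5 and B4galt5 held 43, 25 and 21 CG dinucleotides. The Ugcg window begins at 59189300 and overlaps an annotated exon, whereas the Ugcg transcript of the deposited table starts at 59189257. That window is therefore not shown and is not upstream of the listed transcript start. The low genes B3galt4, St8sia1 and A4galt held 14, 14 and 13. The median of all 32851 windows in the RefSeq table was 6. Thus each of the 3 transcribed genes had more than each of the 3 low genes, and all 6 lay above the median window. For Ugcg this count is not of sequence upstream of the listed transcript. The GC box GGGCGG, itself holding a CG, was searched on both strands, and overlapping matches were not counted separately. It occurred in all 6 windows, with 6 matches in B4galt5 and 1 to 3 in the others, and in 32.7% of all windows. These counts describe the sequence and were not tested against expression.

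Ugcg, the gene of the first committed step, was listed at 30.2, 30.8 and 28.1 FPKM without the analog and at 29.6, 27.4 and 25.9 FPKM with it. The groups overlapped in a narrow range, with the lowest values in treated replicates 2 and 3. The means were 29.7 ± 1.39 and 27.6 ± 1.85 FPKM (SD, n = 3 per group here and below). On the log2(FPKM + 1) scale, which understates changes of low genes, the treated minus untreated difference was -0.10 ± 0.10 (SE), with a 95% interval from -0.34 to 0.13. The deposited table places Ugcg (ENSMUSG00000028381) at 59189257 to 59222833 on chromosome 4, in coordinates whose build is not stated. All coordinates of genes below come from that table, and all but those of Ugcg differ from the positions of the same genes in GRCm38.

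B4galt5 (ENSMUSG00000017929, chromosome 2, 167140364 to 167191103) is the lactosylceramide synthase gene with the higher FPKM in these libraries. It measured 14.97, 22.2 and 19.99 FPKM in untreated and 14.9, 19.7 and 19.4 FPKM in treated libraries. The groups overlapped, and the replicate 1 library of each group was the low one. The means were 19.0 ± 3.70 and 18.01 ± 2.67 FPKM, and the log2 difference was -0.07 ± 0.18, with a 95% interval from -0.49 to 0.35.

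B4galt6 (ENSMUSG00000056124, chromosome 18, 20817656 to 20879461) encodes the other lactosylceramide synthase. It stood at 6.55, 7.09 and 7.07 FPKM in untreated and 6.01, 9.21 and 8.19 FPKM in treated libraries. The treated values lay on both sides of the untreated ones, and the replicate 1 library of each group was its lowest. The means were 6.90 ± 0.303 and 7.81 ± 1.63 FPKM, and the log2 difference was 0.14 with a 95% interval from -0.25 to 0.53. B4galt5 supplied 73.1% ± 3.19 of the summed FPKM of the pair without the analog and 69.9% ± 1.64 with it, and the library ranges overlapped (69.5% to 75.8% and 68.1% to 71.3%). The sum of the pair was 25.9 ± 3.99 and 25.8 ± 4.26 FPKM.

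St3gal5 (ENSMUSG00000056091, chromosome 6, 72074576 to 72131555), the GM3 synthase gene and the only sialyltransferase gene of the 10 above 1 FPKM, had values of 9.95, 9.47 and 8.68 FPKM in untreated and 11.9, 7.40 and 9.44 FPKM in treated libraries. The treated libraries held both the highest and the lowest value, and the replicate 1 library of each group was its highest. The means were 9.37 ± 0.638 and 9.59 ± 2.27 FPKM, and the log2 difference was 0.01 ± 0.17, with a 95% interval from -0.40 to 0.42. Ugcg exceeded St3gal5 by 3.18 ± 0.121-fold in untreated and 2.97 ± 0.638-fold in treated cells.

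**Figure D2:**
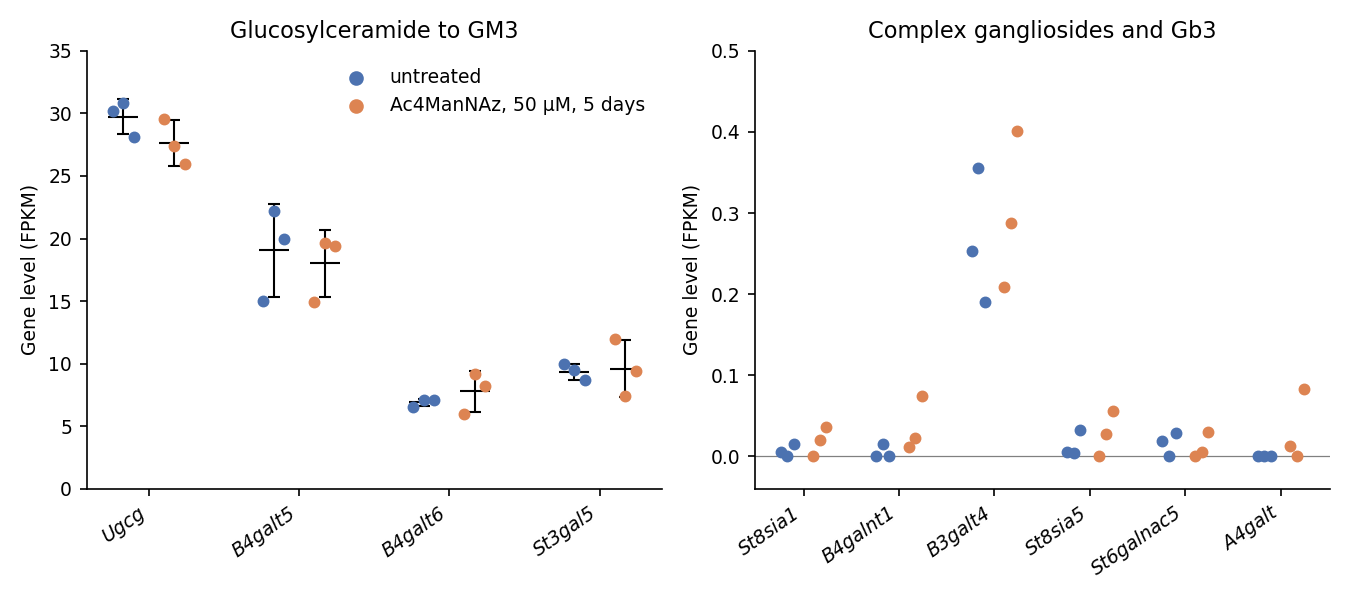
Level in FPKM of each gene in every library, untreated in blue and Ac4ManNAz-treated in orange. In the left panel the horizontal mark is the mean and the bar the SD (n = 3), and the right panel shows points only, on a scale that ends at 0.5 FPKM. Blue and orange points overlap for each gene, and the 4 genes on the left lie between 6.01 and 30.8 FPKM.

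None of the 4 genes above 1 FPKM passed the test. limma with Benjamini-Hochberg adjustment over all 9925 genes averaging 1 FPKM or more called 0 of the 4 (adjusted p = 0.9998 for each), where it called 0.0% of all tested genes. 0 of the 4 had an unadjusted p under 0.05, a level reached by 177 genes, or 1.78% of those tested; the 4 values were 0.330, 0.707, 0.427 and 0.953 in the order Ugcg, B4galt5, B4galt6, St3gal5. On the log2(FPKM + 1) scale, all 4 of the 95% intervals lay within 2-fold in either direction, as did 91.0% of tested genes. All 4 lay within 1.5-fold, as did 64.3%. Bounds in fold here and below refer to that scale, and for low genes they are narrower than bounds on FPKM itself. The groups overlapped for all 4, and treated values lay entirely above untreated ones for 2.1% of tested genes and entirely below for 3.71%, together 5.8%. 2 of the 4 averaged higher in treated cells, as did 49.6% of tested genes. The sign was not fixed for B4galt5, whose log2 difference was 0.04 without untreated replicate 2 and 0.053 without Ac4ManNAz replicate 1, nor for St3gal5, which ranged from -0.15 without Ac4ManNAz replicate 1 to 0.17 without Ac4ManNAz replicate 2. With sample quality weights, under which 2389 genes had an unadjusted p under 0.05, the Ugcg difference was -0.20, with a 95% interval from -0.35 to -0.045 (limma, unadjusted p = 0.0184, Benjamini-Hochberg adjusted p = 0.153). For B4galt6 the difference was 0.29 without Ac4ManNAz replicate 1 and 0.02 without Ac4ManNAz replicate 2.

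The summed level of St3gal5 was steadier than the listed split between its transcripts. Transcript St3gal5-201 measured 9.87, 9.41 and 5.26 FPKM in untreated and 6.41, 5.65 and 9.39 FPKM in treated libraries. Transcript St3gal5-202 stood at 0.0387, 0.0370 and 3.33 FPKM in untreated and 5.52, 1.70 and 0.0186 FPKM in treated libraries. Thus St3gal5-202 was listed with 38.3% of the gene in untreated replicate 3, 46.3% in treated replicate 1 and 23.0% in treated replicate 2. In the other 3 libraries it was listed with under 0.4%. The libraries with a sizeable share came from both groups. In GENCODE M21 the transcripts, of 2258 and 2439 bases, share 2067 bases. The listed split therefore depends on how shared fragments were assigned, by a quantifier that is not stated. Whether it reflects transcript use was not tested. The log2 difference was -0.16 for St3gal5-201, with a 95% interval from -0.85 to 0.54, and 0.65 for St3gal5-202, with an interval from -1.49 to 2.78, which does not bound it within 2-fold. limma called 0 of the 5 tested transcripts of the 10 genes after Benjamini-Hochberg adjustment over 14846 transcripts, of which it called 0.0606%. The value for St3gal5-202 depended on single libraries, from -0.011 without Ac4ManNAz replicate 1 to 1.34 without untreated replicate 3.

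**Figure D3:**
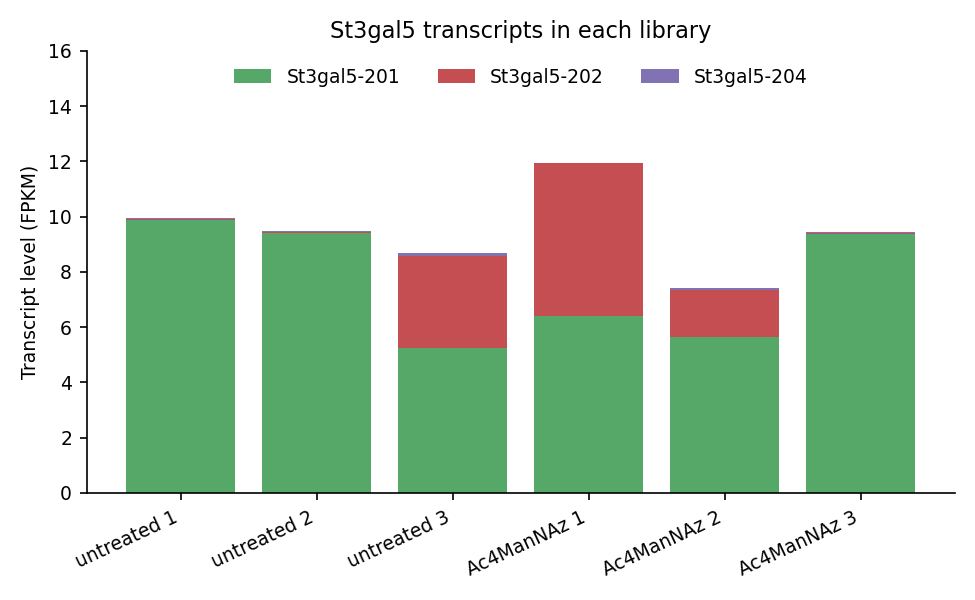
Stacked FPKM of the St3gal5 transcripts in each library. St3gal5-202 (red) is visible in untreated replicate 3 and in treated replicates 1 and 2, while the bar height, the gene sum, runs from 7.40 to 11.9 FPKM.

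In the GENCODE M21 annotation of GRCm38, St3gal5-201 and St3gal5-202 differ at their first exon alone and share the 2067 bases that follow it. The first exon of St3gal5-202 starts 31 bases later and ends 212 bases later, and its reading frame opens in exon 2. The predicted proteins are 414 and 387 residues, a difference of 27 at the amino end, which in this Golgi membrane enzyme faces the cytoplasm. The junction that marks St3gal5-201 is shown with the last 15 bases of exon 1 and the first 15 of exon 2, 5′ to 3′ (GRCm38, chromosome 6, plus strand). The capitals mark the in-frame ATG, codon 28 of St3gal5-201, at which the frame of St3gal5-202 begins.

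St3gal5-201 junction: cacctgcctgccgagcaATGccaagtgagt

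Of the other transcribed genes, Ugcg and B4galt6 had a single transcript in the table, and B4galt5-201 held 97.1% to 100% of B4galt5. Transcript St3gal5-203 was listed at 0 in all libraries, and St3gal5-204 at up to 0.0933 FPKM.

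The genes past GM3 stayed near 0 with and without the analog. B3galt4 (ENSMUSG00000067370, chromosome 17, 34168883 to 34170462), the GM1 synthase gene, had values of 0.253, 0.356 and 0.191 FPKM in untreated and 0.209, 0.287 and 0.401 FPKM in treated libraries. St8sia1 (ENSMUSG00000030283, chromosome 6, 142767271 to 142910178), the GD3 synthase gene, measured 0.00595, 0 and 0.0148 FPKM in untreated and 0, 0.0205 and 0.0360 FPKM in treated libraries. B4galnt1 (ENSMUSG00000006731, chromosome 10, 127001094 to 127008199), the GM2 and GD2 synthase gene, stood at 0, 0.0154 and 0 FPKM in untreated and 0.0116, 0.0222 and 0.0743 FPKM in treated libraries. In each of these genes the groups overlapped and the highest value came from Ac4ManNAz replicate 3.

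St8sia5 (ENSMUSG00000025425, chromosome 18, 77273535 to 77346467), which acts on longer gangliosides, had values of 0.00492, 0.00385 and 0.0323 FPKM in untreated and 0, 0.0281 and 0.0563 FPKM in treated libraries. St6galnac5 (ENSMUSG00000039037, chromosome 3, 152522718 to 152687883), which makes GD1alpha, measured 0.0189, 0 and 0.0293 FPKM in untreated and 0, 0.00546 and 0.0306 FPKM in treated libraries. A4galt (ENSMUSG00000047878, chromosome 15, 83110923 to 83135975), the Gb3 synthase gene, was listed at 0 in all untreated libraries and at 0.0133, 0 and 0.0829 FPKM in treated ones. These values overlapped between groups too, and Ac4ManNAz replicate 3 again held the highest value of each gene. All 6 low genes fell below the filter of the test. In the alternative fit without that filter, limma called 0 of the 6, and 0 of all 20352 genes. Its unadjusted p-values ran from 0.137 for B4galnt1 to 0.771 for St6galnac5, with a Benjamini-Hochberg adjusted p of 0.9998 for each. The 1 added to FPKM shrinks differences at such levels, to 0.04 on the log2 scale for B4galnt1. This fit therefore cannot show that the 6 genes were unchanged.

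Such levels correspond to a handful of fragments. If the low value that recurs most, once multiplied by transcript length, stands for 1 fragment, the libraries held 29900000 to 45200000 fragments. St8sia1 was then seen with 0 to 11.1 fragments per library, St8sia5 with 0 to 10.5, B4galnt1 with 0 to 6.10, and St6galnac5 and A4galt with 0 to 5.94. The B3galt4 transcript of 1580 bases was seen with 8.99 to 25.4 fragments.

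Ac4ManNAz replicate 3 was also the highest library over the olfactory receptor genes, a family known for chemoreception in the nose and looked at after the values were seen. The summed FPKM of 1139 such genes was 14.7, 2.03 and 27.7 in untreated and 1.86, 9.01 and 38.3 in treated libraries. The summed FPKM of the 5 lowest genes was 0.0298, 0.0193 and 0.0763 in untreated and 0.0248, 0.0763 and 0.280 in treated libraries. Both sums were highest in Ac4ManNAz replicate 3 and low in untreated replicate 2 and Ac4ManNAz replicate 1. The part of this signal in the low values was not tested.

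**Figure D4:**
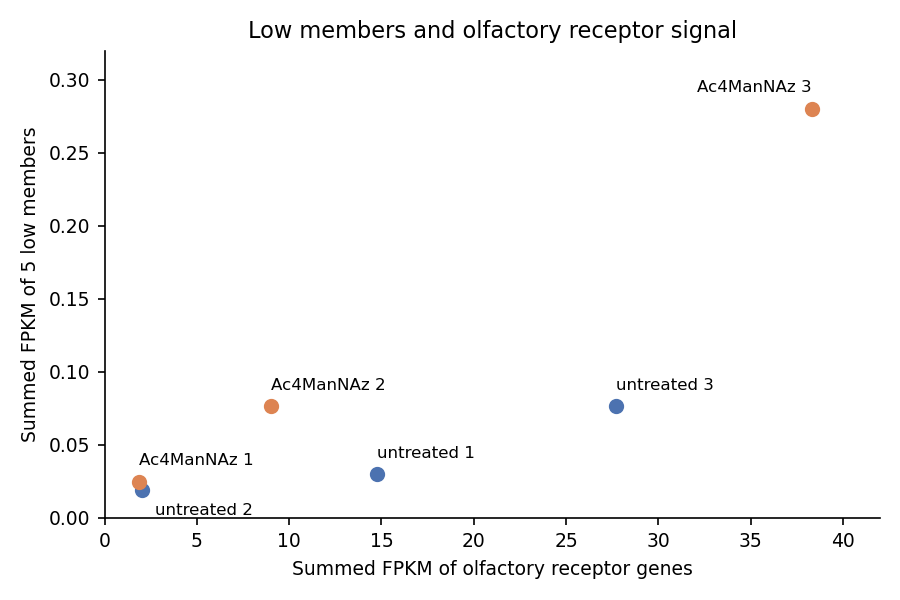
Each point is a library (untreated in blue, Ac4ManNAz-treated in orange). The horizontal axis gives the summed FPKM of 1139 olfactory receptor genes and the vertical axis the summed FPKM of St8sia1, B4galnt1, St8sia5, St6galnac5 and A4galt. Ac4ManNAz replicate 3 lies highest on both axes, at 38.3 and 0.280 FPKM.

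The genes that feed, compete with and break down gangliosides were compared next, in 5 lists of 58 symbols, of which 57 were matched to the table and 43 tested. 0 of the 43 passed limma with Benjamini-Hochberg adjustment over all genes, where it called 0.0% of all tested genes. 0 had an unadjusted p under 0.05, a level reached by only 1.78% of all tested genes. For the counts of direction in each list below, 49.6% of all tested genes averaged higher in treated cells. The median log2 difference was -0.001, the same as over all tested genes. For 41 of the 43 the 95% interval lay within 2-fold, as it did for 91.0% of all tested genes. The groups did not overlap for 3 of the 43, or 6.98%, beside 5.8% of all tested genes.

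Ceramide, the substrate of Ugcg, is made by serine palmitoyltransferase, ceramide synthases and a desaturase. Of 14 such genes, 10 were tested, and 9 of these averaged lower in treated cells by small amounts, with a median log2 difference of -0.06. After rescaling to TPM 6 of 10 averaged lower, with a median of -0.03, beside 0.05 over all tested genes. Over all alternatives the median of the list lay between -0.09 and -0.02. The ceramide synthase genes Cers2 (70.3 ± 5.24 and 69.0 ± 6.43 FPKM) and Cers5 (47.9 ± 3.26 and 45.2 ± 1.03 FPKM) and the serine palmitoyltransferase genes Sptlc2 (48.3 ± 4.38 and 46.8 ± 10.3 FPKM) and Sptssa (45.95 ± 2.53 and 41.8 ± 5.96 FPKM) overlapped between groups. In this list only Cers6 was not bounded within 2-fold, with a 95% interval from -1.20 to 1.16 around -0.02.

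Of 10 genes that move ceramide or glucosylceramide or use ceramide otherwise, 7 were tested, and all 7 were bounded within 2-fold. 1 averaged higher and 6 lower, with a median log2 difference of -0.02. Upper quartile scaling, which moved the median over all tested genes to 0.02, gave 4 higher and 3 lower. The fit without Ac4ManNAz replicate 1 gave 5 higher and 2 lower. Cerk, the ceramide kinase gene, averaged 31.2 ± 4.72 and 29.6 ± 3.96 FPKM, and the glycolipid transfer protein gene Gltp 23.7 ± 2.95 and 22.8 ± 1.44 FPKM. Samd8, which encodes a ceramide phosphoethanolamine synthase, stood at 11.5, 9.60 and 11.7 FPKM in untreated and 11.8, 12.0 and 12.5 FPKM in treated libraries. Its groups did not overlap, yet the 95% interval around its difference of 0.14 ran from -0.14 to 0.42 and it did not pass.

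All 6 genes of sugar donors and their Golgi carriers were tested, and 5 were bounded within 2-fold. 2 averaged higher and 4 lower, against 5 higher and 1 lower after rescaling to TPM and 0 higher and 6 lower without Ac4ManNAz replicate 1. Rescaling to TPM moved the median over all tested genes to 0.05. Ugp2, which makes UDP-glucose, averaged 249 ± 57.8 and 262 ± 38.7 FPKM. Slc35a2, the UDP-galactose carrier, averaged 13.97 ± 1.13 and 13.2 ± 1.49 FPKM. Cmas, which activates sialic acid for all sialyltransferases, differed by -0.001, between -0.24 and 0.23.

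Among 10 other glycosyltransferases that can act on glycolipids, 6 were tested and 4 lay below the filter, including B3gnt5, which starts the lacto series, B3galnt1, which extends Gb3, and A3galt2, which starts the isoglobo series. 5 of the 6 averaged higher and 1 lower, with a median log2 difference of 0.10, and 3 of 6 averaged higher, with a median of -0.09, when the most abundant transcript stood for each gene. St6galnac6, which adds an inner sialic acid to gangliosides of the alpha series, averaged 31.0 ± 2.61 and 33.0 ± 2.84 FPKM. St3gal1, mainly an O-glycan sialyltransferase gene, had values of 20.1, 19.98 and 18.7 FPKM in untreated and 20.5, 26.0 and 25.9 FPKM in treated libraries, which differed by 0.28 on the log2 scale, between -0.01 and 0.57. St6galnac4 measured 7.95, 8.56 and 7.55 FPKM in untreated and 7.41, 7.44 and 3.51 FPKM in treated libraries, which differed by -0.398, between -0.998 and 0.20. The groups of these last genes did not overlap, and neither passed.

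Of 18 genes of ganglioside and glycolipid breakdown, 14 were tested, and 12 of these averaged higher in treated cells, with a median log2 difference of 0.08. All 14 were bounded within 2-fold on the log2(FPKM + 1) scale, which need not bound the FPKM of low genes within 2-fold. The count depended on single libraries. Without untreated replicate 3, 4 of 14 averaged higher and the median was -0.02, beside -0.04 over all tested genes. Without untreated replicate 1, all 14 averaged higher and the median was 0.22, beside 0.04 over all tested genes. Hexa, the lysosomal hexosaminidase subunit that degrades GM2, averaged 215 ± 7.32 and 217 ± 10.6 FPKM, and the activator protein precursor gene Psap 186 ± 28.1 and 192 ± 8.66 FPKM. Arsa, the sulfatide sulfatase gene, averaged 1.74 ± 0.737 and 2.54 ± 0.428 FPKM, and the neutral ceramidase gene Asah2 3.46 ± 0.929 and 4.20 ± 1.11 FPKM, each with overlapping libraries. Neu3, the plasma membrane sialidase that acts on gangliosides, averaged 0.449 ± 0.203 and 0.421 ± 0.163 FPKM, below the filter.

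**Figure D5:**
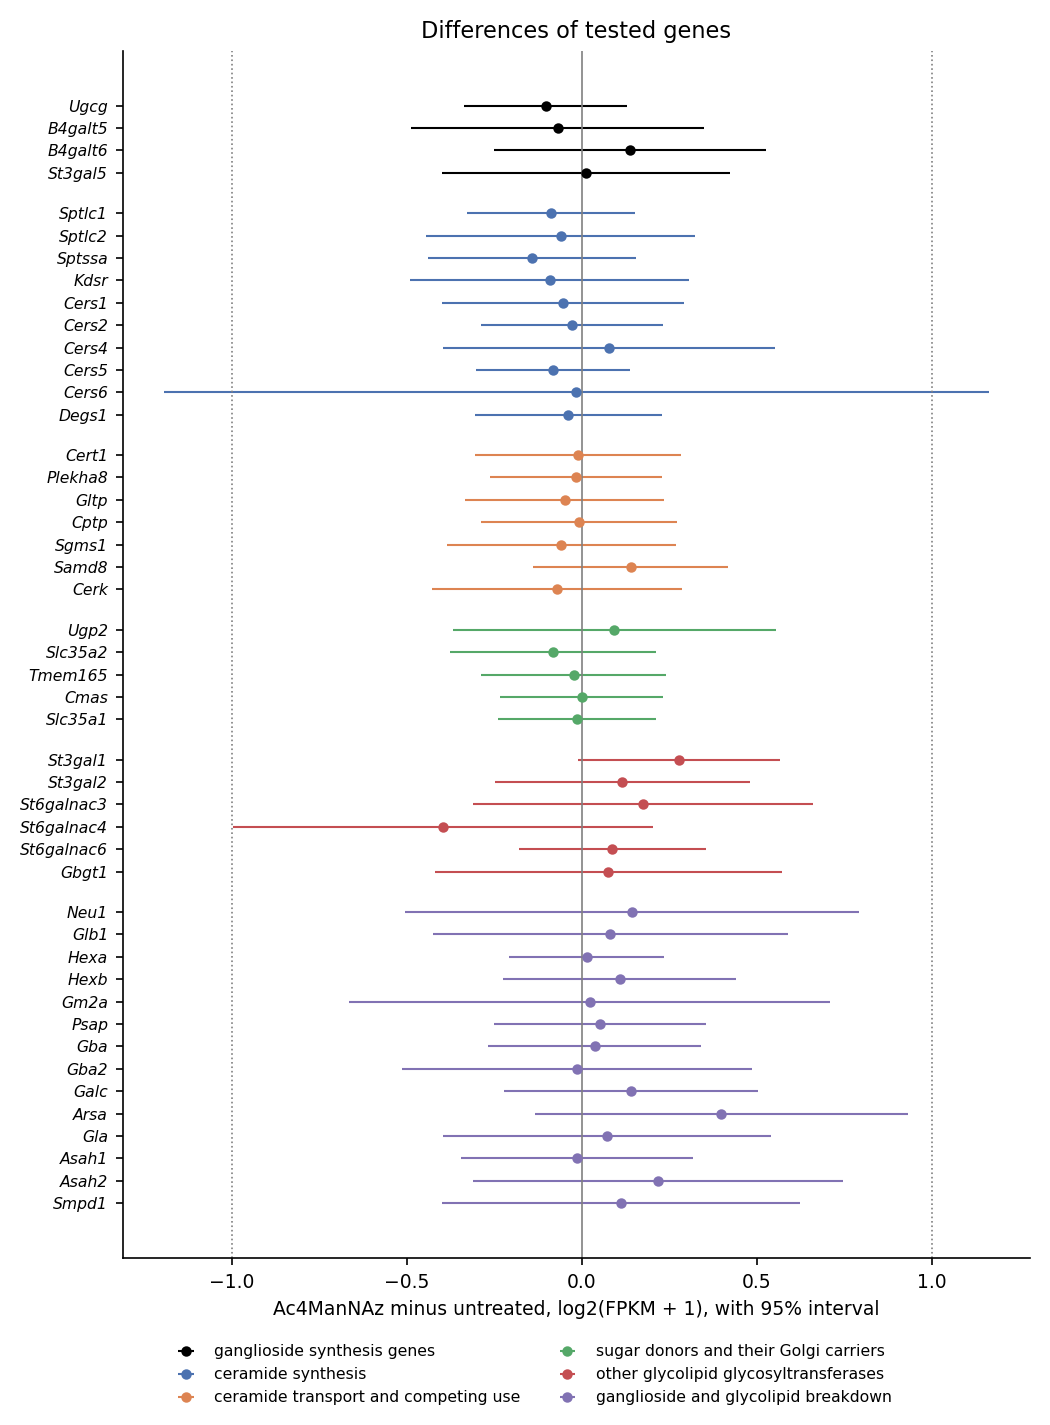
Treated minus untreated difference on the log2(FPKM + 1) scale with its 95% limma interval for the 4 tested ganglioside synthesis genes (black) and the tested genes of the 5 related lists, 1 of which is not drawn. Dotted lines mark 2-fold. Of the intervals drawn, that of Cers6 crosses both dotted lines, and those of the 4 ganglioside synthesis genes lie between -0.49 and 0.53.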

How the data were processed

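Libraries were stranded and made from rRNA-depleted RNA, per the labels' protocols. The authors deposited 1 table of FPKM per annotated transcript and library, the unit being taken from its name and values. The aligner, quantifier, genome build and annotation are not given in the sources used. Transcripts were summed per gene identifier. FPKM values are not counts, so log2(FPKM + 1) of genes (and, separately, transcripts) averaging 1 FPKM or more was tested with limma 3.58.1 in R 4.3.3 (eBayes with trend, two-sided, Benjamini-Hochberg over all tested features, threshold 0.05). The procedure was run on copies of the table with known shifts added, but its power to find small changes is not given here. Python 3.11.15 (matplotlib 3.10.9, numpy 2.4.6, pandas 2.3.3) made the tables and figures.

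Fragment numbers come from single-transcript genes of at least 1000 bases by GENCODE M21 lengths. 5.97% to 15.8% of their low values lay within 2% of the value taken as 1 fragment, which was picked as the most common. Upstream windows come from RefSeq (GRCm38.p6). The genes named were the 10 members, transcripts of at least 1 FPKM, and from each list the 2 highest, the 2 with the smallest p and those whose groups did not overlap; B3gnt5, B3galnt1, A3galt2, Cers6, Neu3 and Gapdh were added after their values were seen, and marker genes came from a list. Members and lists were chosen with earlier results of these data known. Gba3 was not matched, and single results of 2 listed genes are not reported here. Alternatives were 13 other settings and each library left out in turn.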

Additional observations from a re-analysis of the deposited data

How the results depend on the processing

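All 4 tested ganglioside synthesis genes stayed uncalled and within 2-fold under the 19 alternatives (scaling, pseudocount, filter, eBayes settings, sample weights, block, transcript choice and each library left out). The log2 difference ran from -0.15 to -0.06 for Ugcg, -0.23 to 0.053 for B4galt5, 0.02 to 0.29 for B4galt6 and -0.15 to 0.17 for St3gal5 when single libraries were left out. The Ugcg difference was -0.20 with sample quality weights and -0.06 after rescaling to TPM. The St3gal5 difference was -0.006 after quantile normalization, -0.002 with sample quality weights and -0.16 for its most abundant transcript alone, where the sum includes St3gal5-202. For transcripts with single libraries left out it ran from -0.24 to 0.031 (B4galt5-201) and -0.011 to 1.34 (St3gal5-202). The genes called numbered 2 with sample quality weights, 4 with the most abundant transcript, and 0 to 1 with single libraries left out. The transcripts called numbered 9, against 2 at a mean of at least 5 FPKM, 1 with the replicate number as a block and 4 to 14 with single libraries left out; the cause was not tested. Whether the replicate numbers pair the libraries was not settled. Deviations of same-numbered libraries correlated at 0.064, 0.019 and 0.261 across genes. Untreated replicates 1 and 2 and Ac4ManNAz replicate 2 did not correlate best with their own number. Yet both replicate 1 libraries lay on 1 side of the other 4 libraries for 24.7% of tested genes. The block left 0 genes called. Depth limits the 6 low genes to at most 25.4 implied fragments per library.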

Other observations

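The replicate 1 libraries of both groups shared levels that the other 4 libraries did not show, in genes chosen after their values were seen. Cers6, a ceramide synthase of shorter acyl chains, was listed at 3.27 FPKM in untreated and 2.78 FPKM in treated replicate 1, and at 8.57 to 10.5 FPKM in the other 4 libraries. B4galt5 showed the same order, at 14.97 and 14.9 FPKM against 19.4 to 22.2 FPKM. B4galt6 did too, at 6.55 and 6.01 FPKM against 7.07 to 9.21 FPKM. St3gal5 showed the reverse order, at 9.95 and 11.9 FPKM against 7.40 to 9.47 FPKM. Ugcg did not separate, at 30.2 and 29.6 FPKM against 25.9 to 30.8 FPKM. Ugt8a, which makes galactosylceramide from the ceramide that Ugcg uses, was listed at 0.347 and 0.350 FPKM against 0.755 to 1.10 FPKM. Among the 9925 tested genes, both replicate 1 libraries lay below the other 4 for 849 genes and above them for 1600, together 24.7%. The corresponding share was 10.2% for the libraries numbered 2 and 14.6% for those numbered 3. Pairs of libraries with different numbers were not counted, so their share is not known. The labels do not say what a replicate number stands for.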
